A study of Rattus norvegicus with 4 samples.

Results

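Transcripts of the Rab GTPases, the small GTPases that direct membrane traffic inside cells, were measured in cultures of NR8383, an established line of rat alveolar macrophages, the phagocytes of the lung surface. The members were the gene probes whose accession matched a rat gene with a symbol made of Rab, a number and an optional letter. Of 58 such symbols in the reference, 54 had a named probe, out of 16581 named genes on the array, and 70 probes measured them. No probe was named for Rab22a, Rab37, Rab42 or Rab44. There was 1 probe for 41 members, 2 probes for 10 and 3 probes for 3.

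The 4 cultures given here formed 1 group, and each was put on 1 array. All had been exposed for 4 h to titanium dioxide particles of the type NM105 (P25, a mixture of anatase and rutile) at 3 cm2 of particle surface per cm2, and all shared the same culture history, with 15% serum, seeding in 25 cm2 flasks for 48 h and 20 passages. The labels name 4 biological replicates per condition. The study's untreated cultures are not analysed here. No value below is therefore an effect of the particles, and the 4 arrays show the state of exposed cells and its spread. Because NR8383 is 1 line, the spread is between cultures and not between animals.

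A Rab protein switches between a form bound to GDP, which is held in the cytosol, and a form bound to GTP, which sits on one kind of membrane and recruits effector proteins there. Exchange factors load the GTP, GTPase-activating proteins end the active state, and a prenyl anchor added after translation ties the protein to the membrane. Different Rabs mark different compartments, and in macrophages a phagosome that has taken up a particle passes from the Rabs of early endosomes to those of late endosomes and lysosomes as it matures.

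A gene was counted as detected on an array when at least 1 of its probes had more than 50% of its spots well above background in the scanner software. A level is the log2 processed intensity of a probe minus the 75th percentile of its array, taken over the probes detected on all 4 arrays, so that 0 lies at that percentile. Levels of a gene are set against each other between arrays and not against those of another gene, whose probe has its own efficiency. In a bulk culture, fewer cells with a transcript and less of it per cell cannot be told apart.

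The arrays differed in brightness. The intensity at the scaling percentile was 1431, 585, 767 and 831 for replicates 1 to 4, and the named genes detected numbered 7549, 5978, 6534 and 6517 in the same order. All arrays lay on 1 slide, and each held 58717 gene spots, none of them saturated. Of 15 macrophage markers, 13 were detected on every array, among them Cd68, Lyz2 and Csf1r. The exceptions were Adgre1 (F4/80) and Marco, a scavenger receptor, which were detected on none. No marker of epithelium (6 measured), T cells (3) or B cells (2) was detected on any array. Among the 3 neutrophil markers S100a8 was detected on 2 arrays, and among the 5 fibroblast markers Col1a1 was detected on 1. The endothelial genes Cdh5 and Pecam1 were detected on every array, and Kdr and Tek on none.

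Signal well above background was found throughout the 4 arrays for 29 of the 54 Rab genes (53.7%), on part of the arrays for 9 and nowhere for 16 (29.6%). Over all named genes, 35.2% had signal throughout and 53.7% had it nowhere. The Rab family therefore had the larger share detected throughout. Array by array, 38 Rab genes were detected on replicate 1, the brightest, 29 on replicate 2, the dimmest, and 34 on each of the others. By role, the share detected on every array was 7 of 12 for Rabs of the endoplasmic reticulum and Golgi, 5 of 12 for exocytosis and 5 of 7 for early endosomes and nascent phagosomes. It was 6 of 8 for recycling endosomes, 5 of 11 for late endosomes and lysosomes, and 1 of 4 for the Rabs of cilia and ubiquitin ligases.

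**Figure D1:**
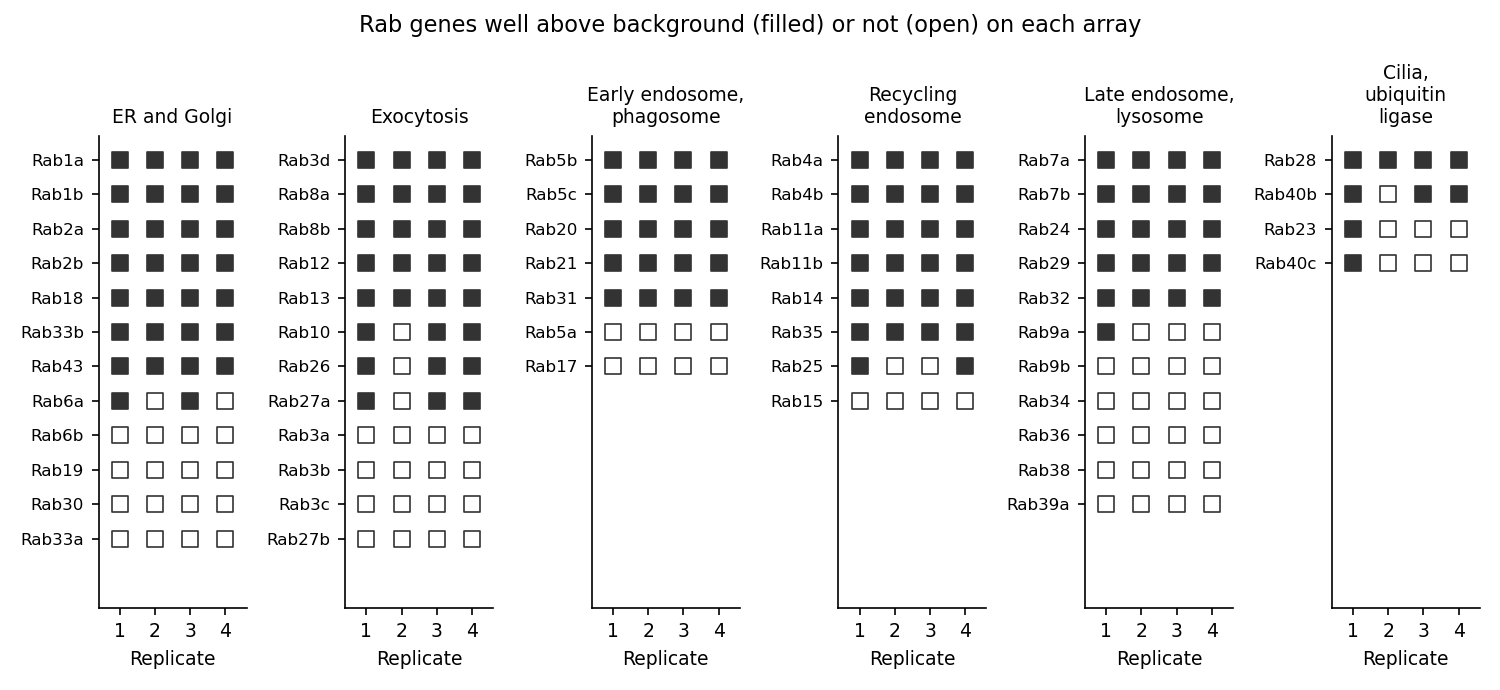
Each square is 1 Rab gene (rows) on 1 array (columns, replicates 1 to 4), in panels by role, filled where the gene was well above background and open where it was not. The 29 genes with a full row stand at the top of their panels, and the 9 with a partial row all have replicate 1 filled and replicate 2 open.

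Among Rabs of the secretory pathway, Rab1a and Rab1b, which carry traffic from the endoplasmic reticulum to the Golgi, were detected on every array. Rab1a had a mean level of -0.01 ± 0.25 (SD, n = 4 here and for each level below), and Rab1b one of 1.49 ± 0.36. Both forms of Rab2, which acts between these compartments, were also detected throughout, Rab2a at -0.74 ± 0.20 and Rab2b at -3.77 ± 0.37. The levels of Rab2a lay between -0.93 and -0.50, a spread below the median of all genes, whereas those of Rab2b lay between -4.15 and -3.35.

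Rab18, found on the endoplasmic reticulum and on lipid droplets, had a level of -2.06 ± 0.42. Rab33b, a Golgi Rab that binds the autophagy protein Atg16l1, had a level of -3.76 ± 0.30. Rab43, a Golgi Rab, stood at -2.93 ± 0.17. None of these 7 genes spanned 2-fold between arrays. Rab6a, which runs traffic from the Golgi back to the endoplasmic reticulum, was detected on replicates 1 and 3 only, with levels of -4.33, -5.81, -5.16 and -5.64 on replicates 1 to 4. Rab6b, Rab19, Rab30 and Rab33a were detected on no array.

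Among the Rabs of exocytosis, close relatives often differed in detection. Of the Rab3 genes, which act in regulated release of vesicles and granules, only Rab3d was detected, at -3.42 ± 0.32, and Rab3a, Rab3b and Rab3c were detected on no array. Both Rab8 genes, which act in traffic to the plasma membrane, were detected on every array, Rab8a at 0.69 ± 0.14 and Rab8b at -4.26 ± 0.44. Rab8a was among the steadier members, with levels from 0.49 to 0.78. Rab8b had levels of -3.82, -4.88, -4.18 and -4.16 on replicates 1 to 4, 2.08-fold between its highest and lowest array, with replicate 2 below the other 3.

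Rab12, a Rab of recycling and secretory vesicles that is a substrate of the kinase Lrrk2, had a level of -2.50 ± 0.33. Rab13, known from delivery of proteins to cell junctions, had a level of -2.72 ± 0.15. Rab10, which drives vesicles to the plasma membrane and is another Lrrk2 substrate, was detected on replicates 1, 3 and 4, with levels of -4.08, -6.73, -4.63 and -4.68 in the order of the replicates. On replicate 2 its intensity was 5.51, below the 99th percentile of that array's negative controls (6.60), so that array gives only a bound. On the other arrays its intensity was 84.8, 31.0 and 32.5.

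Rab27a and Rab27b tether secretory granules and exosome-bearing compartments at the plasma membrane. Rab27a was detected on replicates 1, 3 and 4, with levels of -3.97, -5.04, -4.78 and -4.03 on replicates 1 to 4, and no probe of Rab27b was detected on any array. Rab26, a Rab of secretory granules, was also detected on replicates 1, 3 and 4. Its levels of -5.36, -5.23, -5.22 and -5.24 spanned only 0.14 although the detection call differed between arrays. The intensity behind them was 34.7, 15.6, 20.5 and 22.0, so the array without a call was also the one with the lowest intensity.

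Most Rabs of the first steps of uptake were detected. Rab5 is the master Rab of early endosomes and is present on young phagosomes. Rab5b had a level of -1.07 ± 0.18 and Rab5c one of -0.75 ± 0.18, while the single probe of Rab5a was detected on none. Rab21, which traffics integrins, had a level of -2.95 ± 0.08, and the highest of its 4 levels lay 1.14-fold above the lowest. Rab31, which works between the Golgi and endosomes, had a level of 0.11 ± 0.23. Rab17, known from polarised epithelial cells, was detected on no array.

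Rab20, an endosomal Rab that is recruited to phagosomes in macrophages, was the member of this group that varied. Its levels were -2.72, -1.50, -1.32 and -2.01 on replicates 1 to 4, with a mean of -1.89 ± 0.63 and 2.64-fold between replicates 3 and 1. Replicate 1 was the lowest and replicates 2 and 3 were close together. Before scaling the intensity was 216, 208, 306 and 206 on the same arrays, so replicate 1 was low relative to the brightness of its array and not in raw intensity.

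The promoter windows of this group are shown because 4 of its 7 hold the E-box CACGTG, the palindrome bound by basic helix-loop-helix factors. The windows are RefSeq sequences of the build GRCr8, from 250 bases before the transcription start to 50 after it, and they were found for 45 of the 54 Rab genes. They are Rab20 at chr16:84721177-84721476 on the plus strand, Rab21 at chr7:52814894-52815193 on the minus strand, Rab31 at chr9:112828043-112828342 on the minus strand and Rab5a at chr9:6720877-6721176 on the plus strand. Each is given 5′ to 3′ along the gene, with the E-box in capitals.
Rab20: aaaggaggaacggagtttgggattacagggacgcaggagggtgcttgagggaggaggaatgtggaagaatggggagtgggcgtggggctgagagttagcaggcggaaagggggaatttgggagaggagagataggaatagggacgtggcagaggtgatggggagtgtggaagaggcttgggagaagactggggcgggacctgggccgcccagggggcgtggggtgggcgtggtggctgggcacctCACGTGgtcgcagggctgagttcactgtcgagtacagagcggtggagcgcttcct
Rab21: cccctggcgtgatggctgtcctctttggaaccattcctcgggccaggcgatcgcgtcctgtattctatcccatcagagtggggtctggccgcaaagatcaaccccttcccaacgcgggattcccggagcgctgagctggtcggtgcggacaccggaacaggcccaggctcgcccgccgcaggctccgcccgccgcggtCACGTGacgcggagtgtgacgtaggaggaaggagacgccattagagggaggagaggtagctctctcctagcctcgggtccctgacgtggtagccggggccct
Rab31: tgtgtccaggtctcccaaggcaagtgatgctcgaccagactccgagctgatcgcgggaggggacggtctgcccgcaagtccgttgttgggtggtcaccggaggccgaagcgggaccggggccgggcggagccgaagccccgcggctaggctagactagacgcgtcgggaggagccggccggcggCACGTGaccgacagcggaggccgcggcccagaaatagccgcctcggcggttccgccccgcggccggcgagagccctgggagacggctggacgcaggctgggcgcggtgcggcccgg
Rab5a: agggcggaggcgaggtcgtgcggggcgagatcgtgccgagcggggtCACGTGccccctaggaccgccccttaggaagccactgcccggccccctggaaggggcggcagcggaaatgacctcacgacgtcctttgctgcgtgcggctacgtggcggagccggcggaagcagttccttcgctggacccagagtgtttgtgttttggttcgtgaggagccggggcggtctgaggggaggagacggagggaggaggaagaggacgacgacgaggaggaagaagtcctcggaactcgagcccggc
Counting the start base as 0, the E-box began at -5 in Rab20, -52 in Rab21, -66 in Rab31 and -204 in Rab5a. No other Rab window of the 38 in the other role groups held it. The share was 4 of 45 Rab windows (8.89%), against 7.75% of the windows of all named genes and 6.65% of every window in the table, so the family as a whole was near the background. The grouping in one role was noticed after the values were seen, and no test was made of it. Rab5a holds the motif and was not detected, and Rab5b and Rab5c were detected without it.

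Recycling Rabs were the group with the largest share detected throughout, 6 of 8, and, at 0.17, the lowest median SD of the 6 groups. The early endosome group was close, with 5 of 7 and 0.18, and these medians rest on 6 and 5 genes. Rab4, which returns cargo quickly to the cell surface, was represented by Rab4a at -2.13 ± 0.20 and Rab4b at 0.48 ± 0.14. Rab11, the Rab of the slower pericentriolar recycling compartment, was represented by Rab11a at -0.31 ± 0.13 and Rab11b at -3.04 ± 0.31. Rab14, which acts between the Golgi and endosomes, had a level of 0.45 ± 0.39. Rab35, a Rab of the plasma membrane and of recycling endosomes, was the steadiest member under the scaling used here at 0.98 ± 0.03. Its 4 levels lay between 0.96 and 1.02.

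In Rab11b replicate 1 stood apart, with levels of -2.57, -3.18, -3.25 and -3.17 on replicates 1 to 4. This was the only one of the 29 members in which Dixon's ratio set 1 array apart, against 6.03% of all genes. Rab11a did not share this, with levels of -0.34, -0.37, -0.43 and -0.12. Rab25, a relative of Rab11 known from epithelial cells, was detected on replicates 1 and 4, with levels of -5.66, -5.70, -6.08 and -5.44. Rab15 was detected on no array.

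Rabs of late endosomes and lysosomes included the most variable member, Rab7a. It governs the passage of late endosomes and phagosomes to lysosomes, and its levels were -4.41, -3.70, -2.86 and -3.38 on replicates 1 to 4, with a mean of -3.59 ± 0.65. Replicate 3 was the highest and replicate 1 the lowest, 2.94-fold apart, and this was the largest SD of the 29 members. Its intensity was 67.1, 45.1, 106 and 79.6 before scaling. Rab7b, which controls traffic from late endosomes to the Golgi, had levels of -3.84, -3.98, -2.88 and -3.61, with a mean of -3.58 ± 0.49. Replicate 3 was again the highest, 2.14-fold above replicate 2, but the second probe of Rab7b had its highest level on replicate 2.

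The promoter windows of both Rab7 genes are given because the pair differs in CpG content. Rab7a is at chr4:122064136-122064435 on the minus strand and Rab7b at chr13:45673195-45673494 on the plus strand, again from RefSeq on GRCr8 and 5′ to 3′, with each CpG in capitals.
Rab7a: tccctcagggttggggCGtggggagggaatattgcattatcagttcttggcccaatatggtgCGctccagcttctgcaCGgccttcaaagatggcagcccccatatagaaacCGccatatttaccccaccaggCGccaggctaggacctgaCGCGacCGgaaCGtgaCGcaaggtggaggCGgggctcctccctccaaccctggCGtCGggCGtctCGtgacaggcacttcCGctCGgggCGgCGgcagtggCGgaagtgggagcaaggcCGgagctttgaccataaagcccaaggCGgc
Rab7b: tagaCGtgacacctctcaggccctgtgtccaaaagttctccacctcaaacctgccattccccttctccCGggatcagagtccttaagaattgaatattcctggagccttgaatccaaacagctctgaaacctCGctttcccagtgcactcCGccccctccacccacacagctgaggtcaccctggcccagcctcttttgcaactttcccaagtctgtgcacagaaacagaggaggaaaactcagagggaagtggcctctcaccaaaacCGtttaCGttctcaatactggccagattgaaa
There were 22 CpG in the window of Rab7a and 6 in that of Rab7b. The ratio of observed to expected CpG was 0.741 for Rab7a and 0.321 for Rab7b, the lowest of the 45 windows. Both transcripts were nevertheless detected on every array.

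Rab24, an unusual Rab linked to autophagy, had a level of -1.19 ± 0.34. Its 4 levels were -1.59, -0.78, -1.09 and -1.29, highest on replicate 2 and lowest on replicate 1. Rab29, a Golgi and lysosome Rab that recruits Lrrk2, had a level of -0.55 ± 0.13 and was steady. Rab32, a Rab of lysosome-related organelles and mitochondria, had a level of -3.58 ± 0.27. Rab9a, which returns cargo from late endosomes to the Golgi, was detected on replicate 1 only, with levels of -5.62, -7.29, -6.62 and -7.22. On replicates 2 and 4 its intensity was 3.73 and 5.56, below the 99th percentile of the negative controls (6.60 and 7.05). Those arrays give only a bound. Rab9b, Rab34, Rab36, Rab38 and Rab39a were detected on no array, and Rab38 is the close relative of Rab32 known from melanosomes.

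Of the remaining members, only Rab28, a Rab of cilia and photoreceptors, was detected throughout, at -1.58 ± 0.21. Rab40b and Rab40c carry a SOCS box, which lets them act as adaptors of a ubiquitin ligase. Rab40b was detected on replicates 1, 3 and 4, with levels of -5.36, -5.44, -5.24 and -4.53. Rab40c was detected on replicate 1, with levels of -5.89, -7.13, -5.70 and -6.67, although replicate 3 had the higher scaled level. On replicate 2 the intensity of Rab40c was 4.17, below the 99th percentile of that array's negative controls (6.60), so that array gives only a bound. Rab23, which restrains Hedgehog signalling and acts in cilia, was also detected on replicate 1 alone, with levels of -5.72, -7.08, -6.36 and -7.17 for its brighter probe. The intensity of that probe was 4.33 on replicate 2 and 5.76 on replicate 4. Both lay below the 99th percentile of the negative controls (6.60 and 7.05) and give only a bound.

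Detection of the 9 partly detected genes moved with the brightness of the arrays, whose part in these calls was not tested. All 9 were detected on replicate 1, the brightest array, none on replicate 2, the dimmest, and 5 each on replicates 3 and 4. Among the 1855 named genes detected on some arrays only, 92.7% were detected on replicate 1 and 7.98% on replicate 2, while the shares for replicates 3 and 4 were 38.0% and 37.0%. Without replicate 2, 33 Rab genes were detected on all remaining arrays, against 37.8% of all named genes, and those added were Rab10, Rab26, Rab27a and Rab40b. When a gene was counted wherever it exceeded the 99th percentile of the negative controls, 34 Rab genes passed on every array, against 43.2% of all named genes.

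The spread between arrays was close to that of the array as a whole. The 29 members detected throughout had a median SD of 0.25 on the log2 scale, against 0.23 for the 5824 named genes with a probe detected on all arrays. Of these members, 16 had an SD above the median of all genes, 10 above their 75th percentile (0.32) and 7 below their 25th percentile (0.16). The highest array was at least 2-fold above the lowest for 4 members (13.8%), Rab7a, Rab7b, Rab20 and Rab8b, against 8.96% of all genes. For 16 members the highest array lay less than 1.5-fold above the lowest. By role, the median SD was 0.30 for the endoplasmic reticulum and Golgi, 0.32 for exocytosis, 0.18 for early endosomes and 0.34 for late endosomes and lysosomes.

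Which members passed 2-fold depended on the arrays kept, and the share of all genes that passed fell as well. Without replicate 1 only Rab7b passed, against 2.21% of all genes. Without replicate 2 only Rab7a and Rab20 passed, of 33 members, against 5.39% of all genes. With normexp background correction Rab7a and Rab20 passed, against 4.84% of all genes. Rab7b, at 1.76-fold, and Rab8b, at 1.08-fold, did not. When the probes of a gene detected on all arrays were averaged, Rab7b fell to 1.67-fold. Rab7a, Rab8b and Rab20 then passed, against 8.59% of all genes.

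**Figure D2:**
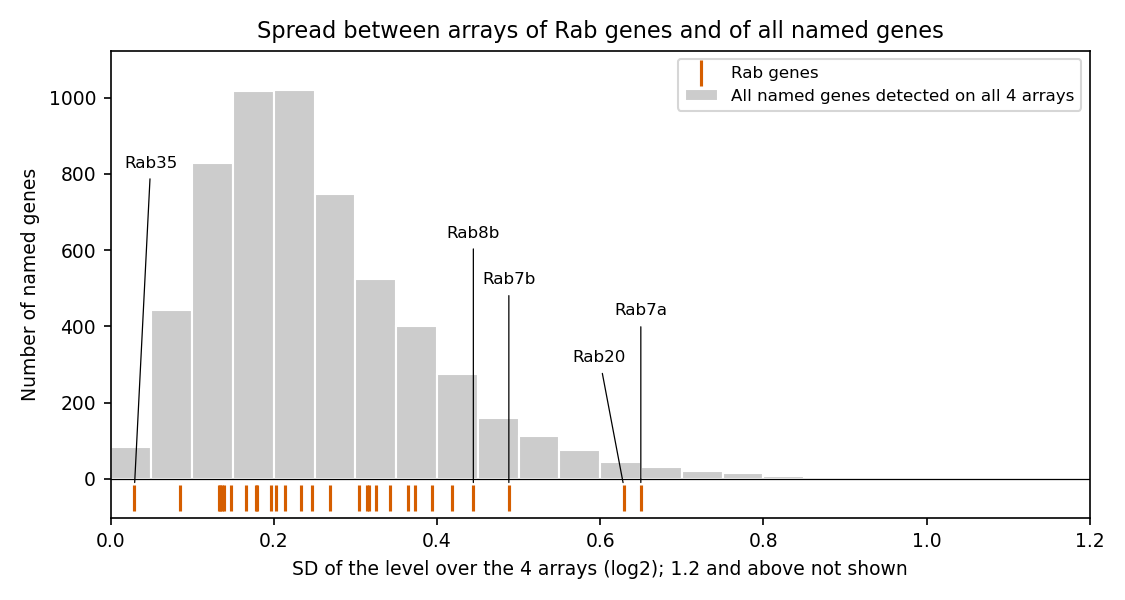
The grey bars count the named genes detected on all 4 arrays by the SD of their level over the arrays (log2 scale), and the orange ticks below 0 mark the 29 Rab genes. The ticks lie across the body of the distribution, from Rab35 at 0.03 to Rab7a at 0.65.

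The members did not share one array as their highest. Replicate 1 was the highest array for 12 members (41.4%, against 37.8% of all genes), replicate 2 for 5 (17.2%, against 28%), replicate 3 for 8 (27.6%, against 19.1%) and replicate 4 for 4 (13.8%, against 15.1%). Replicate 1 was the lowest for 7 (24.1%, against 25.0%), replicate 2 for 12 (41.4%, against 32.2%), replicate 3 for 4 (13.8%, against 22.2%) and replicate 4 for 6 (20.7%, against 20.6%). For replicates 1 to 4, the median deviation of the members from their own means was 0.04, -0.16, 0.08 and -0.02. Over all genes it was 0.06, -0.01, -0.01 and -0.01. These counts and deviations depend on how the arrays were scaled. Under normexp correction, the 75th percentile over all probes, median scaling and quantile normalization, replicate 1 was the lowest for 10 to 14 members. Replicate 2 was then the lowest for 8 or 9. Under these settings the median deviation of all genes also moved, by -0.14 to -0.03 on replicate 1 and 0.02 to 0.11 on replicate 2. The shares of all genes lowest on each array were not counted there.

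**Figure D3:**
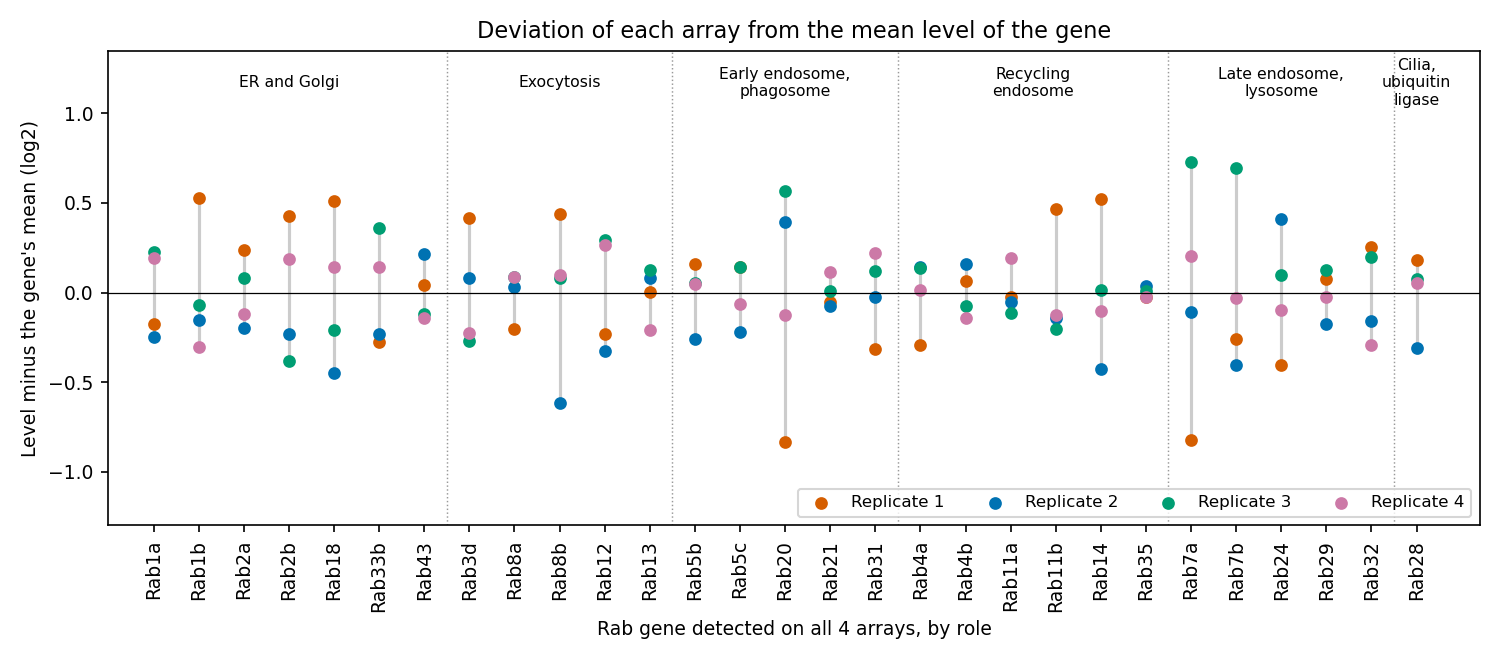
For each Rab gene detected on all 4 arrays, 1 point per array shows the level minus the gene's mean (log2), with a grey line from the lowest to the highest array and genes ordered by role. Rab7a, Rab7b and Rab20 have replicate 3 on top, Rab8b has replicate 2 at the bottom, and the points of Rab35 coincide.

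A test of differences between arrays, limma's moderated F over spots of the same probe, needs a probe printed at more than 1 spot and detected on all arrays. It ran on 1594 probes of 871 named genes, among them no Rab probe, so no p-value is available for any detected Rab gene. The Rab probes printed at 10 spots were those of Rab6b, Rab15 and Rab34, none of them well above background on any array.

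Probes of the same gene gave a check on single values. For 7 members, 2 or 3 probes were detected on every array. Both probes of Rab1a were highest on replicate 3 and lowest on replicate 2, and all 3 probes of Rab14 were highest on replicate 1. In the other 5 the probes named different arrays as highest. The largest gap between the deviations of 2 probes on 1 array was 0.99 for Rab18 and 0.84 for Rab7b, against 0.16 for Rab28 and 0.08 for Rab4b. It was 0.48 for Rab1a, 0.46 for Rab1b and 0.43 for Rab14. In Rab18, Rab7b, Rab1a, Rab1b and Rab14 the gap exceeded the SD of each probe of the gene.

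**Figure D4:**
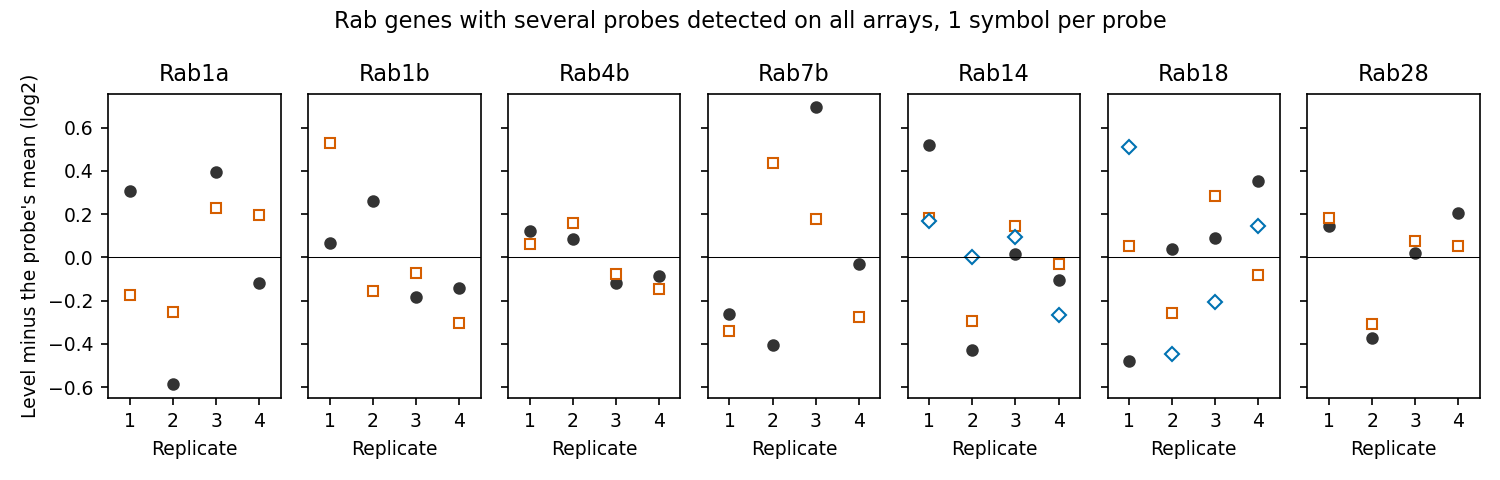
Each panel is 1 Rab gene, each symbol 1 of its probes, and the vertical axis is the level on an array minus the probe's own mean over the 4 arrays (log2). The symbols lie close together for Rab4b and Rab28 and far apart for Rab18 and Rab7b.

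Probes of 5 genes also differed in detection. The second probe of Rab11a was detected on replicates 1, 3 and 4, with levels of -5.04, -5.95, -5.41 and -5.29. That of Rab2b was detected on replicate 1 only, with levels of -6.43, -6.03, -5.89 and -5.84. The second probes of Rab12, Rab23 and Rab35 were detected on no array. Their levels were -6.97, -7.03, -6.18 and -6.62 for Rab12, -8.78, -7.39, -7.78 and -7.79 for Rab23 and -6.17, -6.97, -6.82 and -6.69 for Rab35. A gene with a single dim probe, as Rab5a has, could therefore be missed by that probe, and it is given as not detected and not as unexpressed.

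The genes that load, unload and anchor Rab proteins were taken from lists in which 75 symbols were measured, 48 of them (64.0%) on all arrays, against 35.2% of all named genes. Of the 8 genes of prenylation and membrane extraction, 7 were detected on every array. Chm, the escort protein that presents Rabs to the prenyl transferase, had a level of -3.07 ± 0.49. The transferase subunits Rabggta and Rabggtb had levels of -3.46 ± 0.15 and -2.97 ± 0.43. Only Chml, the second escort protein, was detected on no array.

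Of 17 exchange factors measured, 13 were detected throughout. They included the Rab5 exchange factors Rabgef1 at -2.61 ± 0.29, Rin2 at -1.44 ± 0.36 and Rin3 at -4.40 ± 0.36, and Rab3il1, which acts on Rab8, at -3.86 ± 0.51. Rin1 and Rab3ip were detected on no array. Of 19 GTPase-activating proteins, 14 were detected throughout, among them Rabgap1 at -3.60 ± 0.18, Rab3gap2 at -3.09 ± 0.15, Usp6nl at -2.65 ± 0.21 and Tbc1d1 at -1.03 ± 0.26. Rabgap1l and Tbc1d8 were detected on no array.

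Effectors were the list with the lowest share, 12 of 28 on every array and 13 on none. Those detected included Rabep2, a partner of Rab5, at -1.37 ± 0.24, Rilp, which links Rab7 on lysosomes to dynein, at -2.48 ± 0.19, Rilpl2 at 0.08 ± 0.36, and Plekhm1, a Rab7 effector in lysosome fusion, at -1.94 ± 0.29. Rbsn, another Rab5 effector, and Rilpl1 were detected on no array. The kinase Lrrk1 had a level of -3.30 ± 0.38 and the phosphatase Ppm1h, which removes the phosphate that Lrrk2 puts on Rabs, one of -1.22 ± 0.15. Lrrk2 itself was detected on 2 arrays. Of the 48 regulators detected throughout, 3 spanned at least 2-fold between arrays, against 8.96% of all genes, too few to set the regulators apart. They were Chm, Rab3il1 and Tbc1d20, and Tbc1d20 only just reached that limit.

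Promoter windows were more often rich in CpG for Rab genes that were detected than for those that were not. A window was called CpG-rich at an observed over expected ratio of at least 0.6 and at least 50% G and C. That held for 20 of 25 windows (80.0%) of Rab genes detected on all arrays, 6 of 7 (85.7%) detected on some and 6 of 13 (46.2%) detected on none. Over all named genes the shares were 72.9%, 64.4% and 31.3% for the same classes, so the Rab windows followed the order of the array as a whole between all and none. The exceptions among detected members included Rab14, whose window had 32.3% G and C and a ratio of 0.553, and Rab7b. Among undetected members Rab5a, with a ratio of 0.985, and Rab39a, with 0.789, were CpG-rich.

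**Figure D5:**
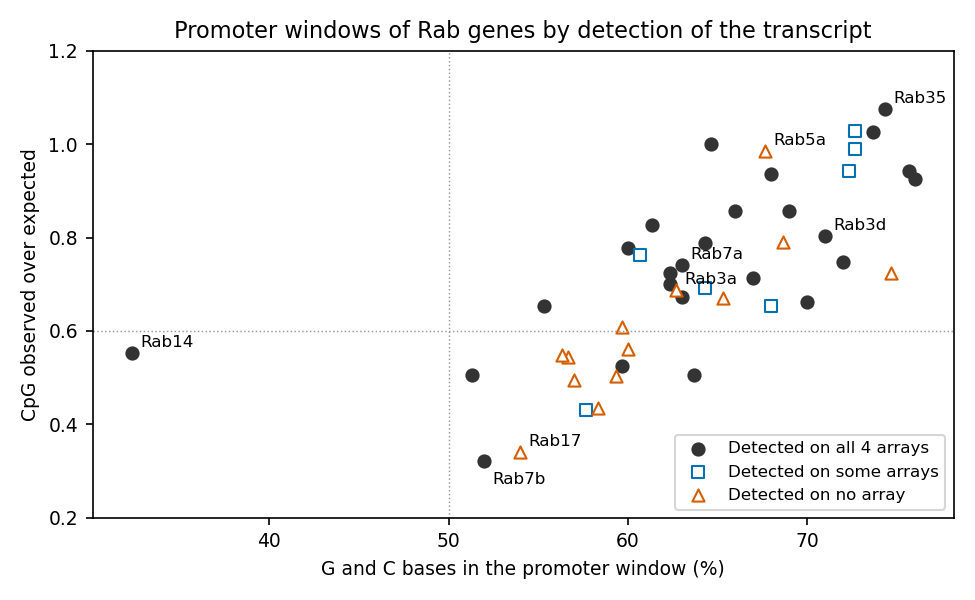
Each point is the promoter window of 1 Rab gene, with the share of G and C bases (%) across and the ratio of observed to expected CpG upward, and dotted lines at 50% and 0.6. Most windows of genes detected on all arrays (circles) or some arrays (squares) lie in the upper right field, and those of genes found nowhere (triangles) lie on both sides of the line at 0.6.

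A pair of other motifs, searched on both strands, was near its background. TCACGTGA, the core of the element of lysosomal genes bound by Tfeb, which contains the E-box, was found in the window of Rab21 alone, 1 of 45 (2.22%) against 1.22% of all named genes. TGANNNNGC, a looser form of the core of the antioxidant response element with any base after TGA, was found in 19 of 45 (42.2%) against 41.7%. A match is a stretch of letters in the window and not evidence of binding. No window was matched for Rab1b, Rab2a, Rab2b, Rab23, Rab24, Rab26, Rab33a, Rab36 or Rab38.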

How the data were processed

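RNA of 4 exposed NR8383 cultures was hybridised to 1-colour Agilent arrays. The deposited files hold spot intensity made with Agilent Feature Extraction 11.0.1.1, per the file headers. The authors' software subtracted background from the processed intensity and detrended it across the array, with no normalization between arrays. The deposited files also give flags of 0 or 1 per spot and the unsubtracted median intensity of spot and background, which served for the normexp alternative.

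Control spots were left out. Spots flagged as outliers (486 to 723 of 58717 gene spots per array) were left out unless every spot of the probe was flagged, when the value was kept. Each probe of a detected Rab gene was printed at 1 spot, so none of these spots was left out. Repeated spots of 1 probe were averaged after taking log2. The 75th percentile was taken over probes detected on all arrays because these were 22.9% of 45598 probes. Accessions were matched without version to a RefSeq gene table of GRCr8, used for names and promoter windows only; the grid in the file headers is of another build. This named 21109 probes (46.3%), and 24489, of which 3534 were detected on all arrays, stayed unnamed. A gene's level is that of its brightest probe detected on all arrays, or of its brightest probe where none was. Accession matches do not show whether a probe binds a related Rab transcript.

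All members are accounted for. Members detected on all arrays are given with mean and SD. Values on each array are given for members detected on some arrays, spanning 2-fold, with 1 array apart from the others, or with probes that differ in detection. In each list of regulators, the first 4 detected on all arrays and the first 2 detected on none are named, except 1 gene that is not reported here. The members and lists were chosen with earlier results of these data known.

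Arrays were compared with limma 3.58.1 (R 4.3.3), with Benjamini-Hochberg adjustment at 0.05. On simulated data of 1594 probes and with no fold minimum, the test called 100 of 100 probes changed by 1 log2 unit, 100 of 100 changed by 2, and 11 of 1394 unchanged probes. The simulated spots had the same SD for every probe and no other difference between arrays, so recovery under the spread of the real arrays was not tested. On the real arrays the test called 1358 of 1594 probes with no fold minimum and 74, of 39 genes, at 2-fold. None was of a Rab gene, because no Rab probe could enter it. Its p-values concern arrays and not conditions. The number of arrays, 4, limits the precision, and the 99th percentile of 308 negative controls was 5.14 to 7.05 intensity units. Other scalings, background corrections, filters, probe rules and leaving out each array were tried.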

Additional observations from a re-analysis of the deposited data

Results flagged for a closer look

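In 2 Rab genes, 1 array lay far from the other 3 relative to the range of all 4. Rab11b had a level of -2.57 on replicate 1, against -3.18, -3.25 and -3.17 on replicates 2 to 4. Replicate 1 was also the brightest array, with an intensity of 240 for Rab11b against 64.5, 80.9 and 92.5 on the others. Under normexp correction its levels were -2.09, -2.28, -2.40 and -2.47, with no such gap. Rab26 had a level of -5.36 on replicate 1, against -5.23, -5.22 and -5.24, a gap of little size because its whole range was 0.14, and it was not detected on replicate 2. Chance flags about 1 in 20 groups. Of the 29 members detected throughout 1 was singled out, against 6.03% of all genes. What sets these arrays apart was not tested.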

How the results depend on the processing

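The count of Rab genes detected on all arrays was 29 to 34 under every rule and array left out, and that of regulators 48 to 51. The share of all named genes was 35.1% to 43.2% over the same settings. The median SD of 0.25, against 0.23 over all genes, became 0.17 with normexp correction, against 0.18. It was 0.40 with all 54 members kept, dim ones included, against 0.46 over all genes. With 1 array left out it lay between 0.19 and 0.26, against 0.19 to 0.24 over all genes. The 4 members past 2-fold became 2 with normexp, against 4.84% of all genes. Without the filter on dim probes they became 25 of 54, against 52.8% of all genes. With 1 array left out they became 1 to 4, against 2.21% to 7.79% of all genes. Other scalings left 3 or 4, Rab7a and Rab20 among them each time, against 8.22% to 8.83% of all genes. Rab24 entered under the 75th percentile over all probes, and Rab8b left under it, under median scaling and under quantile normalization. Rab7b left under normexp and under the mean over detected probes. Without the filter on dim probes, which admits probes not well above background, limma called 573 of 2319 probes and 379 of 1354 named genes at 2-fold. Of 3 Rab probes it called 2, Rab6b (adjusted p = 6.29e-12) and Rab15 (adjusted p = 1.31e-19), while Rab34 had an adjusted p of 0.38. Their intensity was 3.55 to 3.91 for Rab15 and 3.64 to 3.83 for Rab6b, so their differences in level are those of the scaling reference. That setting moved the median deviation of all genes by -0.36 on replicate 1 and 0.28 on replicate 2, normexp by -0.14 and 0.11, and the 75th percentile over all probes by -0.10 and 0.09. The highest array stayed the same for 19 and the lowest for 17 of 29 members under normexp. Rab35 no longer had the lowest SD under normexp (0.054, against 0.051 for Rab8b). Nor did it under the 75th percentile over all probes (0.10, against 0.08 for Rab29). No paired analysis was possible because the samples form 1 group. Signal over background limits the dim members, above all on replicate 2, and the causes of these changes were not tested further.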
